A study of Mus musculus with 2 samples.

Results

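The Ikaros family comprises 5 zinc finger transcription factors, encoded in the mouse by Ikzf1 (Ikaros), Ikzf2 (Helios), Ikzf3 (Aiolos), Ikzf4 (Eos) and Ikzf5 (Pegasus). These members were chosen with earlier results of the data below known. Their probe sets were taken from an expression array of thymocytes by current gene symbol or older alias, with no use of the measured values. This gave 13 of the 34945 probe sets that carry 1 gene in the platform annotation, for 5 of 18193 genes. No probe set shared between several genes held a member. Of the 13 probe sets, 10 had a signal above the floor described below on both arrays, at least 2 for each gene, and 3 lay below it on both.

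The series holds 2 one-colour arrays of C57BL/6J thymocytes, 1 titled DKO and 1 titled TKO, made from cells left after bead depletion of lineage-marker-positive cells. By the series' design text, both are Cdkn2a-/- Ring1A-/- Ring1Bfl/fl, and the difference is Lck-Cre, a recombinase under the promoter of a T lineage kinase gene, which is absent from DKO mice and present in TKO mice. The samples' own field differs: it gives DKO as loss of Ring1A and Ring1B, and TKO as loss of Ring1A, Ring1B and Cdkn2a. Cells of both are said to have been kept in standard medium. Age, time in culture and number of mice per array are not given in the sources used here. With 1 array per label there was no spread between replicates and no test, so higher and lower describe these 2 arrays, and a difference of 2-fold or more (a log2 ratio of 1) was the rule of size. Pairs of signals are given with the DKO-labelled array first, positive log2 ratios mean a higher signal under the TKO label, and the floor is the median signal of all probe sets of an array (68.8 and 71.8), below which a signal is not counted as measured.

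Ikaros proteins bind DNA through N-terminal zinc fingers, at sites with the core GGGAA, and pair with each other through C-terminal fingers. They recruit the nucleosome remodelling and deacetylase complex (NuRD) and other cofactors and can repress or activate genes. Ikaros is needed for lymphoid development and acts as a tumour suppressor in T cell precursors, where it restrains Notch target genes. Helios and Eos are best known from regulatory T cells, and Aiolos from later B cell and T cell stages. Pegasus is the most divergent member and prefers another DNA site.

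The labels were checked first. Cdkn2a, the gene of the cyclin kinase inhibitor Ink4a and of Arf, had signals of 679 and 18.5, the latter below the floor. Ring1 (133 and 147) and the brightest probe set of Rnf2, the gene of Ring1B (4149 and 4384), had log2 ratios of 0.15 and 0.08. The Cdkn2a signals go against the design text and go with the samples' own field, which gives Cdkn2a as lost for TKO only. The Ring1 and Rnf2 signals do not show less transcript on either array. The position of these probe sets within or outside the deleted parts was not analysed here, so the arrays are called by their labels. Xist, the RNA of the inactive X chromosome, was at 124 and 16502, and the Y-linked Eif2s3y at 1711 and 55.3. Sex therefore differed together with the label and cannot be told apart from it. Cd4 lay below the floor on both arrays (17.8 and 12.2), while Cd8a (616 and 635) and the T cell receptor chain gene Cd3g (22057 and 13607) were above it.

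None of the 5 Ikaros family genes differed by 2-fold between the arrays. Represented by its brightest probe set, Ikzf3 had the highest ratio, at 1.27-fold higher under the TKO label, and Ikzf4 the lowest, at 1.36-fold lower. Ikzf1 and Ikzf5 were within 1.04-fold. The family's median log2 ratio was 0.02, against -0.03 over all 11280 genes measured on at least 1 array. Of those genes 4.11% were at least 2-fold different, 3.58% higher and 0.532% lower, so a count of 0 among 5 is near the background. In bulk RNA, fewer cells of a type and less RNA per cell cannot be told apart.

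**Figure D1:**
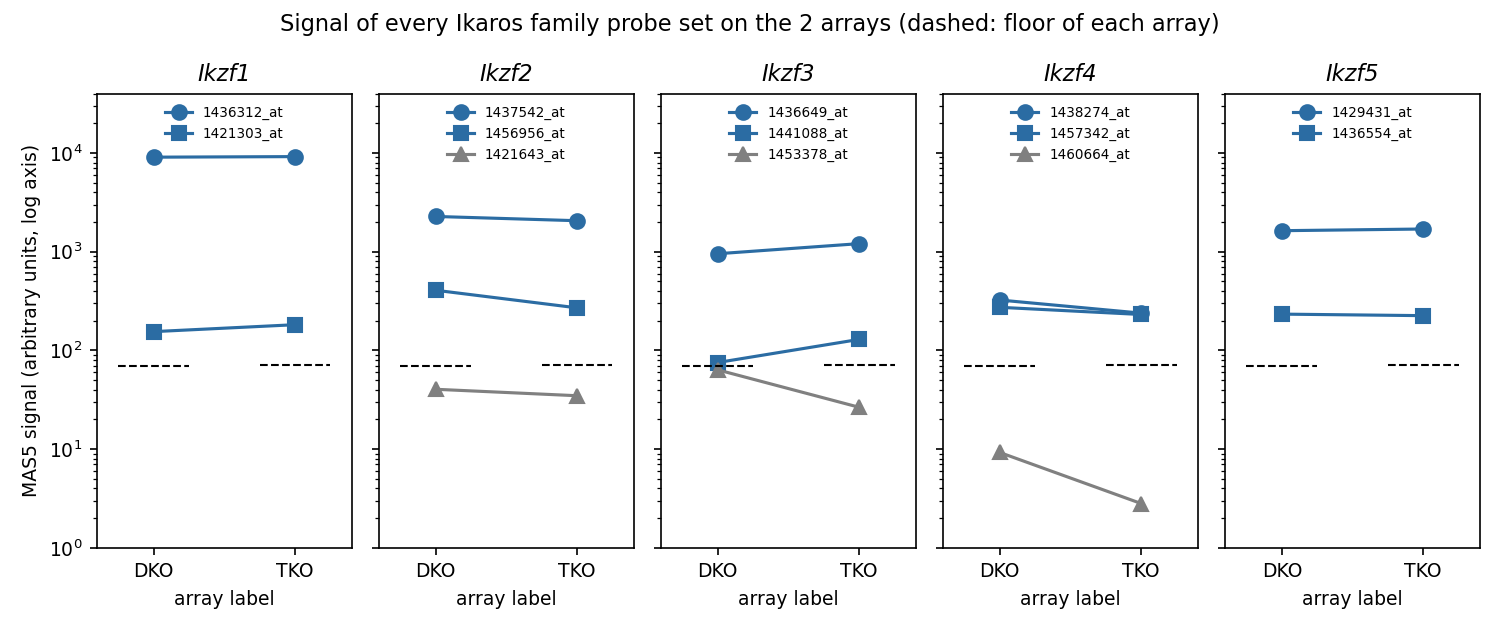
MAS5 signal (arbitrary units, log axis) of all 13 Ikaros family probe sets by array label (DKO, TKO), 1 panel per gene; each line joins 1 probe set, grey lines are probe sets below the floor on both arrays, and dashed lines mark the floor (68.8 and 71.8). Measured lines slope down for Ikzf2 and Ikzf4 and up for Ikzf1 and Ikzf3, while those of Ikzf5 go opposite ways, and none spans 2-fold.

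Ikzf1, on chromosome 11, encodes Ikaros, the founding member. Its brightest probe set, 1436312_at, had signals of 9059 and 9179, a log2 ratio of 0.02. The dimmer probe set, 1421303_at, had 155 and 182, a log2 ratio of 0.23. Both were slightly higher under the TKO label, and the gene's value stayed positive in all 9 alternative settings, between 0.02 and 0.13. Bright genes as a class were slightly lower on the TKO-labelled array. The 436 genes within 0.5 log2 units of the mean signal of 1436312_at had a median log2 ratio of -0.13 with a robust SD of 0.17. Of them 22.5% had a ratio as high as that of Ikzf1 or higher. The signals show Ikzf1 transcript well above the floor on both arrays at nearly equal levels.

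Ikzf5 encodes Pegasus and lies on chromosome 7. Probe set 1429431_at gave 1631 and 1696 (log2 ratio 0.06), and 1436554_at gave 233 and 225 (log2 ratio -0.05). The probe sets thus had opposite signs and differed by 0.11, less than the 0.21 log2 units used here as the spread of a probe set. That figure is the robust SD of a single probe set, from differences between the brightest and next brightest probe set of 4794 genes measured on both arrays. Such probe sets share their hybridisations, so it holds no error between animals, RNA preparations or arrays.

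Promoter windows of Ikzf1 and Ikzf5 were read from RefSeq, build GRCm38.p6. Each holds 300 bases, 250 of them before a transcript start, which need not be the annotated end of the gene. Both Ikzf1 windows lie inside the annotated gene, which begins at chr11:11684962. The Ikzf5 stretch runs across the annotated start of that gene, at chr7:131410518. The windows are shown because Ikaros proteins can bind the regulatory DNA of their own genes. The capitals mark the core GGGAA or its reverse complement TTCCC. Windows of 2 members, 3 in all, were matched, and Ikzf2, Ikzf3 and Ikzf4 were not. Each line is 60 bases on the gene's own strand: Ikzf1 at chr11:11690109-11690168 (plus strand) and Ikzf5 at chr7:131410482-131410541 (minus strand).
Ikzf1: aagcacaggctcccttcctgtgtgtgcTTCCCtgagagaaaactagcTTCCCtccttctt
Ikzf5: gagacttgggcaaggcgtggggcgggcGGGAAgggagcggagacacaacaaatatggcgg
The other Ikzf1 window held no such letters. Of 32851 windows of all genes, 62.7% held the core on one strand or the other, and 25.6% held the longer TGGGAA or TTCCCA (each longer match contains a core match), which none of the 3 member windows did. These matches describe the letters and say nothing of binding.

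Ikzf2, on chromosome 1, encodes Helios, which marks many regulatory T cells and some other T cells. Its brightest probe set, 1437542_at, had signals of 2273 and 2058, a log2 ratio of -0.14. The dimmer 1456956_at had 406 and 269.7, a log2 ratio of -0.59 (1.51-fold lower). Both were lower under the TKO label but by different amounts, and 17.1% of the 4794 genes had probe sets that differed as much or more (0.45). Among 1713 genes of like brightness, 3.44% were as low as the dimmer probe set or lower, and 31.9% of 1541 as low as the brightest. The remaining probe set, 1421643_at, lay below the floor on both arrays (40.4 and 34.7) and has no ratio. As the mean over measured probe sets, Ikzf2 had a log2 ratio of -0.37, and its sign was negative in all 9 alternative settings.

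Ikzf3 encodes Aiolos and lies on chromosome 11. Probe set 1436649_at had signals of 953 and 1205.5, a log2 ratio of 0.34. Probe set 1441088_at, barely over the floor in the DKO-labelled sample, had 75.4 and 129, a log2 ratio of 0.78 (1.71-fold), the largest of the 10 measured. Both measured probe sets were higher under the TKO label and neither reached 2-fold. Of 2054 genes of like brightness, 11.5% had ratios as high as that of 1436649_at or higher, and the share was 11.5% of 1432 genes for 1441088_at.

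The last Ikzf3 probe set, 1453378_at, ran the other way, with signals of 63.5 and 26.5, below the floor on both arrays. With the floor at the 25th percentile it counts as measured and is 2.39-fold lower (log2 ratio -1.26). The mean over the 3 Ikzf3 probe sets is then -0.05, against 0.56 as the mean over those above the median floor. The sign of the Ikzf3 mean thus depended on whether this dim probe set was counted. Where on the transcript each one lies was not analysed here.

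Ikzf4, on chromosome 10, encodes Eos, a corepressor partner of Foxp3 in regulatory T cells. Probe set 1438274_at had 324 and 238 (log2 ratio -0.44), and 1457342_at had 273 and 231 (log2 ratio -0.24). Both were lower under the TKO label. Of genes of like brightness, 9.99% of 1572 and 24.2% of 1503 were as low or lower. Probe set 1460664_at was far below the floor on both, at 9.24 and 2.81. With a higher floor, the 75th percentile, no Ikzf4 probe set was measured. In the 8 other alternative settings the log2 ratio stayed between -0.51 and -0.34.

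**Figure D2:**
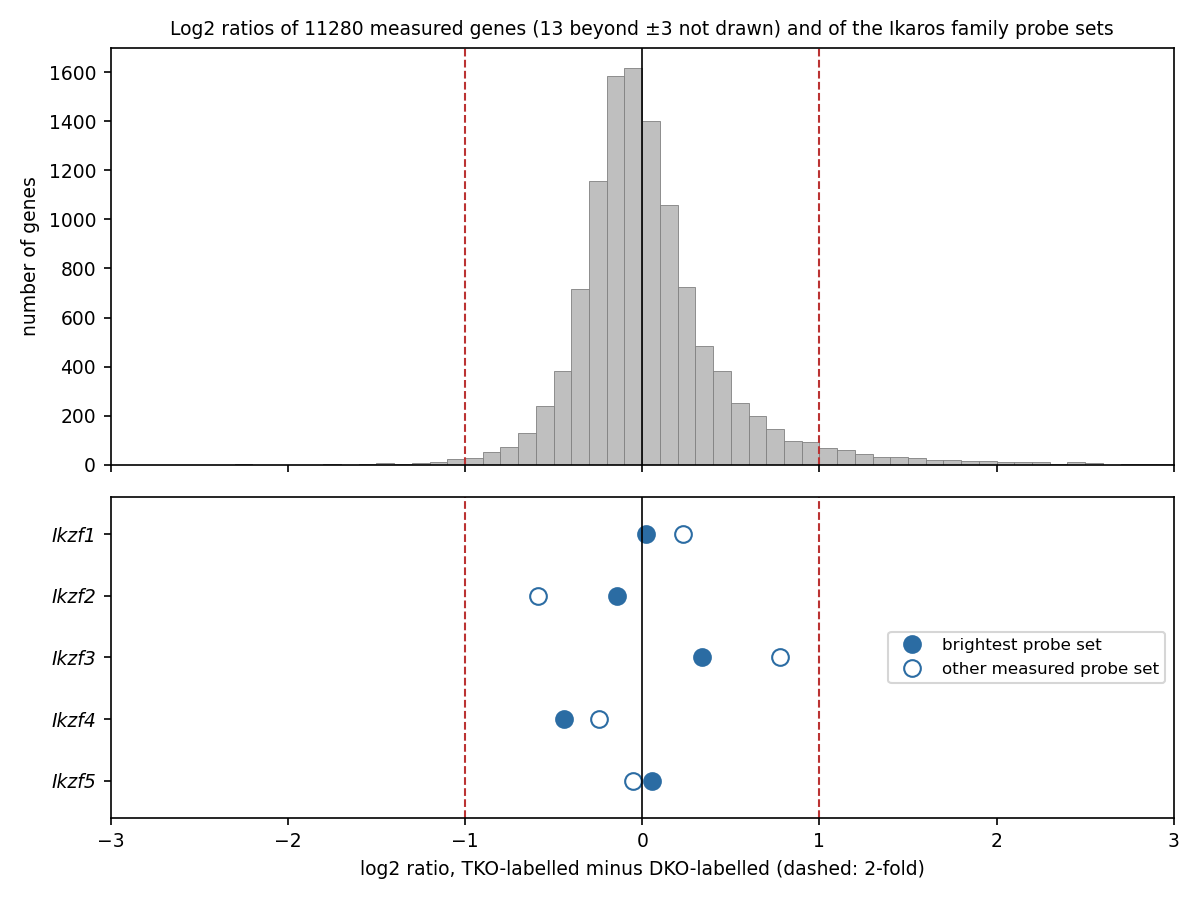
Top, number of genes by log2 ratio (TKO-labelled minus DKO-labelled) for the 11280 measured genes; bottom, the 10 measured Ikaros family probe sets, with filled points for the brightest probe set of each gene and open points for the other. All 10 points lie between the dashed 2-fold lines, from -0.59 for Ikzf2 to 0.78 for Ikzf3.

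Across the 10 measured probe sets, 0 reached 2-fold, against 3.48% of the 20400 measured probe sets with 1 gene. The order of the genes by log2 ratio was Ikzf3, Ikzf5, Ikzf1, Ikzf2 and Ikzf4. Neighbours Ikzf5 and Ikzf1, and Ikzf1 and Ikzf2, differed by less than 0.21 log2 units, the robust SD of a single probe set. A difference between 2 probe sets has a wider spread, so the other neighbours are not called separate. Signals of the 5 genes are not set against each other, because probe sets differ in how strongly they hybridise.

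As a plain description, the genes whose pair of signals lay closest to a member's (distance in log2 units over the 2 arrays) were Psmb1 (9013 and 9009, distance 0.028) and Sf3b1 (0.037) for Ikzf1, and Gpr65 (2265 and 2062, 0.0057) and Zfp664 (0.0059) for Ikzf2. For Ikzf3 they were Cyb561a3 (967 and 1200.2, 0.022) and Pogz (0.033), and for Ikzf4 Rnf215 (323 and 241, 0.014) and Pdss2 (0.019). For Ikzf5 they were 1700097N02Rik (0.015) and Lrpap1 (1655 and 1699.6, 0.022). With 2 arrays, such closeness shows no more than like signals.

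The subunits of NuRD, through which Ikaros proteins act on chromatin, were all measured. None of the 14 genes passed 2-fold in either direction, and the median log2 ratio was -0.16. All 14 ratios were negative, against 53.5% of all measured genes, and the lowest value was that of Mta3 at -0.41 (2361 to 1783). The methyl-CpG-binding subunit Mbd3 followed at -0.38, the remodelling ATPase Chd3 at -0.31 and Cdk2ap1 at -0.25. The signs are those of the brightest probe sets, and the share over all genes was not matched for brightness. Mta3 had another probe set at 0.31 and Mbd2 one at 0.28. Gatad2b, Gatad2a and Hdac2 also had positive ones, up to 0.09, 0.07 and 0.06. Chd4, the main ATPase bound by Ikaros and named here for that role, had 2728 and 2446 (log2 ratio -0.16). The ratios were small. The number of negative ones fell to 13 with the median set to 0 or as the mean over probe sets. It was 12 after quantile normalization or without _x_at and _s_at probe sets, and 11 after lowess.

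The other cofactors of Ikaros proteins examined were the corepressors CtBP and Sin3 and subunits of the BAF remodelling complex. Of 8 genes, 1 passed 2-fold on the higher side and 0 on the lower side, against 3.58% and 0.532% of all measured genes. The median was -0.15. The higher one was Ctbp2, a C-terminal binding protein, with signals of 794 and 1712 (2.16-fold, log2 ratio 1.11). Its other probe set had 0.88, and as the mean over probe sets Ctbp2 was just under 2-fold at 0.99. Its paralog Ctbp1 had a log2 ratio of -0.16 (8399 and 7539). Sin3b was at -0.27, but at 0.15 without _x_at and _s_at probe sets, and the BAF ATPase Smarca4 was at -0.20. The BAF subunit gene Smarcb1 was at -0.15, but its other measured probe set was past 2-fold, at 1.34.

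Genes of the enzymes that set Ikaros phosphorylation, casein kinase 2 and protein phosphatase 1, had a median of -0.05 over 5 measured of 6, with 0 higher and 0 lower by 2-fold. Csnk2a2, a catalytic kinase subunit, was at 0.44 (2721 to 3685), although its 6 measured probe sets ran from -0.32 to 0.44 and their mean was on the other side of 0, at -0.04. Ppp1cb, a catalytic phosphatase subunit, was at 0.42 (9010 to 12066). The phosphatase genes Ppp1cc and Ppp1ca were at -0.17 and -0.09, both slightly positive after lowess. The cereblon ubiquitin ligase, through which drugs of the thalidomide class degrade Ikaros and Aiolos in human cells, had a median of -0.19 over 5 of 5 genes, with 0 higher and 0 lower. Its values ran from Rbx1 at -0.33 to Cul4a at 0.06, and the substrate receptor gene Crbn had 0.02, the highest of its 3 measured probe sets, which reached down to -0.42.

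Genes known from other work as repressed by Ikaros or Aiolos, mostly Notch targets and early lymphoid genes, were mixed. Of 12 measured genes, 1 passed 2-fold on the higher side and 1 on the lower, against 3.58% and 0.532% of all measured genes. The median was -0.37. Il2ra, the interleukin 2 receptor alpha chain of early thymocytes, was lower, with 6536 and 3162 (2.07-fold, log2 ratio -1.05). It was just under 2-fold once the lowess trend was removed (-0.98), and in the mean of its probe sets (-0.95). Heyl, a Notch-induced repressor, was higher from a signal near the floor, with 76.8 and 174 (2.27-fold, log2 ratio 1.18). It was not measured with the 75th-percentile floor. The pre-T-cell receptor chain Ptcra had -0.65 (4028 to 2564) and the Notch regulator Dtx1 -0.52 (3906 to 2717), although the other Dtx1 probe set was at 0.11.

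Of 8 measured genes known as activated by Ikaros or needing it, 2 passed 2-fold on the higher side and 0 on the lower. Over all measured genes the shares were 3.58% and 0.532%. The list's median was 0.29, and neither Flt3 nor Cd4 was measured. The higher ones were the B lineage factor Ebf1 (630 to 3649, 5.79-fold) and the adaptor Blnk (723 to 2878, 3.98-fold). Il7r, the interleukin 7 receptor, was at 0.57 (5159 to 7665). Cd3d, whose enhancer is a classic Ikaros site, was at -0.73 (13004 to 7822). Ebf1 and Blnk also stand in the B lineage list described below, and the values of both were known when the lists were chosen. Cd3d also stands in the T lineage list, and Rag1, Rag2, Cd8a and Cd4 in the double-positive list. The activated list is therefore not independent of those marker lists.

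Start windows of these target genes were searched for the same letters, since the family binds them. Of 10 windows of 9 repressed genes, 5 held GGGAA or TTCCC, and 1 held the longer form. Of 10 windows of 9 activated genes, 10 held the core and 3 the longer form, against 62.7% and 25.6% of all windows. Of the target genes past 2-fold, Heyl had no matched window, and the only match of Blnk lay after the transcript start of its window. Of the 2 Ebf1 windows, both with the core, the one with the longer form was used. The stretches shown are those of Il2ra and Ebf1, whose signals passed 2-fold, and of Ptcra, the one repressed gene whose window held the longer form. They lie at chr2:11642564-11642623 (Il2ra, plus strand), chr17:46763764-46763823 (Ptcra, minus strand) and chr11:44619994-44620053 (Ebf1, plus strand), in GRCm38.p6, with matches in capitals.
Il2ra: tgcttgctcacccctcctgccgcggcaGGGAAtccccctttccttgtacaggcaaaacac
Ptcra: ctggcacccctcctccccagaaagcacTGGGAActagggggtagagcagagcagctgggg
Ebf1: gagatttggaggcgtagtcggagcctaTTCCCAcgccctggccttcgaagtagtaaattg
The core occurred in windows of genes that were higher (Ebf1), lower (Il2ra) and neither (Ptcra) under the TKO label.

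**Figure D3:**
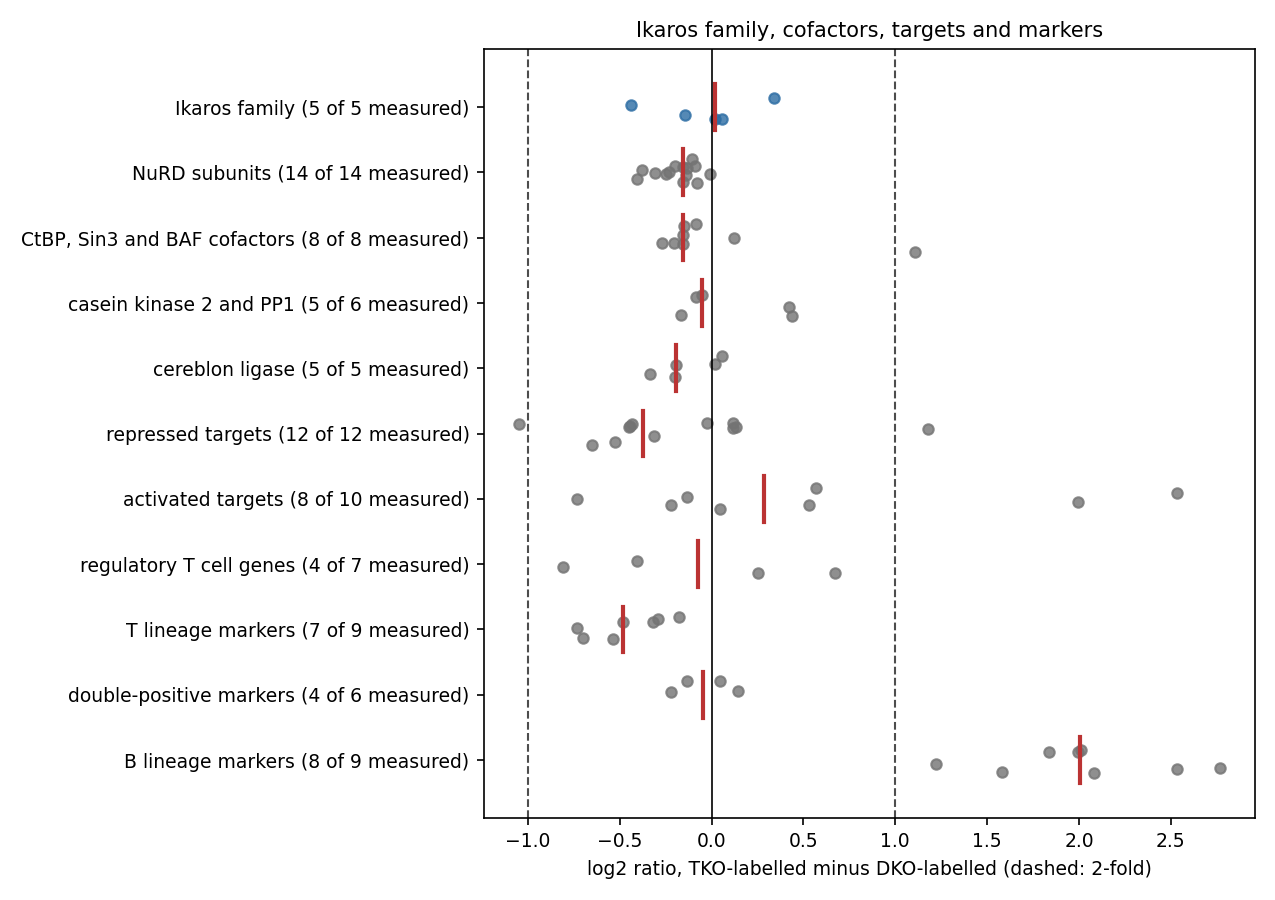
Log2 ratio (TKO-labelled minus DKO-labelled, horizontal axis) of each measured gene, 1 point per gene, for the Ikaros family (blue) and 10 other lists (grey), with a red bar at each list's median and dashed lines at 2-fold. The family's points lie around 0 (median 0.02), while the B lineage markers lie beyond 2-fold (median 2.0) and the T lineage markers below 0 (median -0.48).

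Regulatory T cell genes were examined because Helios and Eos are used there. Foxp3, the factor that defines these cells, was below the floor on both arrays (50.7 and 29.6), as was Gpr83. Of 4 measured of 7 genes, 0 were 2-fold higher and 0 lower, with a median of -0.07. Ctla4, an inhibitory receptor, was at -0.81 (2645 to 1510), and Nrp1 at -0.40 (2220 to 1678). The receptors Tnfrsf4 and Tnfrsf18 were at 0.67 and 0.25. The Ikzf2 and Ikzf4 signals were thus measured where Foxp3 was not above the floor.

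Markers of other cells moved beside the Ikaros family values, and their part in those values was not tested. Over all measured genes, 3.58% were at least 2-fold higher and 0.532% lower, the background for the marker counts here and below. All 8 measured of 9 B lineage markers were 2-fold higher or more under the TKO label, with a median of 2.0. Their summed signals were 6913 and 26322. Ikzf3, used in later B cells, had 0.34 beside these markers. All 7 measured of 9 T lineage markers had negative ratios and none was 2-fold lower, with a median of -0.48 and summed signals of 76035 and 52239. Double-positive thymocyte markers, a stage that uses Aiolos, had a median of -0.04 over 4 measured of 6, with 0 past 2-fold.

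Dendritic markers were 2-fold higher for 3 of 7 measured of 8 genes (median 0.81), all 3 of them class II genes or Cd74, which B cells also express, and the plasmacytoid marker Siglech was below the floor on both arrays. Progenitor markers were 2-fold higher for 4 of 5 measured of 6 (median 1.82), namely Lmo2, Hhex, Mef2c and Hoxa9. Kit was at -0.08, and Flt3 was below the floor on both arrays. Hoxa9 was below the floor on the DKO-labelled array (53.9), and its other probe set was at -0.28. Myeloid markers were 2-fold higher for 2 of 4 measured of 6 (median 0.63), Csf1r and Lyz2. Elane was at -0.55 and Mpo at -0.06, with Itgam and Cd14 below the floor on both arrays. Natural killer and innate lymphoid markers had 0 of 7 measured of 8 past 2-fold (median 0.75), and gamma-delta and innate-like T cell markers 1 of 4 measured of 6 (median 0.31), the B cell kinase gene Blk. Stromal and epithelial markers had 0 of 4 measured of 8 (median 0.37, which turned to -0.26 with the 75th-percentile floor), and erythroid markers 0 of 1 measured of 5 (-0.16). Of these 10 marker lists together with the regulatory T cell list, only the B lineage list had every measured gene past 2-fold. With the 75th-percentile floor, 6 of its 7 measured genes were past 2-fold. The B lineage marker Pax5 had another measured probe set at 0.24.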

How the data were processed

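The authors deposited 1 linear intensity per probe set and array. The submitters' processing notes name MAS5 and give neither its version nor its settings. Each array had been scaled as a whole, to a mean of 497 after trimming 2% at each end. Of 45037 probe sets, 34945 carried 1 gene, 932 several and 9160 were unlisted; 99.4% of the first were matched by Entrez ID to RefSeq symbols (GRCm38.p6). Signals below each array's median (68.8 and 71.8) were raised to it, which shrinks the ratios of dim genes; probe sets below it on both arrays have no ratio. A gene stands by its brightest probe set (mean of both log2 signals). Ratios are TKO-labelled minus DKO-labelled, without a test.

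The rule named every member and probe set, genes of the other lists past 2-fold, up to 4 largest per list and 2 nearest genes per member; others were named for their role after values were seen. Members and lists were chosen with earlier results of these data known. Alternatives were median centring, quantile normalization, lowess (span 0.3), the mean over probe sets, a floor at the 25th or at the 75th percentile, and leaving out _x_at and _s_at types; no floor, and the 25th-percentile floor with the mean over probe sets, were added after seeing the data. Detection calls and scanner files were not used here. Python 3.11.15, numpy 2.4.6, pandas 2.3.3, scipy 1.17.1, statsmodels 0.14.6 and matplotlib 3.10.9 were used. The number of arrays limits the precision.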

Additional observations from a re-analysis of the deposited data

How the results depend on the processing

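None of the 5 Ikaros family genes reached 2-fold in either direction in the 7 planned and 2 added settings. The mean over probe sets moved Ikzf2 to a log2 ratio of -0.37 and Ikzf3 to 0.56, and with the 25th-percentile floor as well Ikzf3 was at -0.047, since the dim probe set of opposite direction then enters. The number of genes at least 2-fold higher and lower was 404 and 60; it was 962 and 434 with the 25th-percentile floor, 147 and 14 with the 75th, 2197 and 1497 with no floor, and 839 and 369 with the 25th-percentile floor and the mean over probe sets. The median of the activated targets was 0.078 with no floor, and that of the regulatory T cell genes -0.40 with the 75th-percentile floor, because the measured genes differ. Of the values of the family, of the medians of lists other than marker lists and of these counts, the other 148 moved little. The limit was 0.21 log2 units, the SD of a single probe set, or 1.5 times for a count. Among marker lists, named genes and the 2-fold counts of the other lists, 36 values moved by more. The count of 1 higher among other cofactors fell to 0 in some settings. So did the counts of 1 higher and 1 lower among repressed targets. Over the settings, the stromal median reached -0.26 and 1 stromal gene passed 2-fold with the 25th-percentile floor; the progenitor median fell to 1.12, the natural killer median was 0.37 and the gamma-delta median 0.80 with the 75th-percentile floor, and the dendritic and myeloid medians reached 1.23 and 1.14. Ebf1 was at 1.71 and Csnk2a2 at -0.15 with the 25th-percentile floor and the mean over probe sets. No paired analysis was possible because each label has 1 array. Array signals near the floor, such as those of the dim Ikzf3 probe sets and Heyl, carry the least precision, and no setting supplies the missing spread between animals.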
